A study of Mus musculus with 12 samples.

Results

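Plasma apolipoproteins are the protein parts of the lipoprotein particles that carry triglyceride and cholesterol in blood. Their transcripts were followed in livers of 12 mice through 10 genes, *Apoa1*, *Apoa2*, *Apoa4*, *Apoa5*, *Apob*, *Apoc1*, *Apoc2*, *Apoc3*, *Apoe* and *Apom*, which were chosen by symbol from the 25676 genes of the deposited expression table. The mice were C57BL/6 animals aged 3 to 4 months, and RNA of the whole frozen liver was sequenced. Wild-type (WT) livers came from 3 males and 3 females, and knockout (KO) livers, in which *Yap1* was deleted with Foxa3-Cre, came from 3 males and 3 females. *Yap1* encodes YAP1, a transcriptional co-activator held in check by the Hippo kinases. *Foxa3* is active in the embryonic endoderm that gives rise to both hepatocytes and bile duct cells, so that deletion with this driver is not limited to hepatocytes. The comparison asks how the apolipoprotein transcripts of the liver differ between mice with and without *Yap1* and between the sexes.

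Hepatocytes secrete triglyceride in very low density lipoprotein, which is built around a single apolipoprotein B molecule, and they secrete apolipoprotein A-I and A-II, which form high density lipoprotein. The small exchangeable apolipoproteins move between particles. Apolipoprotein C-II activates lipoprotein lipase, apolipoprotein C-III restrains it and slows the uptake of remnant particles, and apolipoprotein E is the ligand by which remnants are taken up. Several of these genes lie side by side in gene clusters, and nuclear receptors such as HNF4A are known regulators of them in liver.

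The stretches upstream of *Apoa4* and *Apoc2*, which were higher in KO livers, and of *Apoa2*, which was lower, are shown because the results turn on these genes. They are the reference mouse sequence (RefSeq, GRCm38.p6) on the strand of each gene, 5′ to 3′, trimmed of annotated exons of protein-coding genes, and capitals mark the motif matches. The *Apoa4* stretch is chr9:46240594-46240695 on the plus strand, the *Apoc2* stretch is chr7:19677942-19678082 on the minus strand and the *Apoa2* stretch is chr1:171224804-171225053 on the plus strand.
Apoa4: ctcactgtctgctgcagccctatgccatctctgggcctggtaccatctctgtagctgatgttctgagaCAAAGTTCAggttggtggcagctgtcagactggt
Apoc2: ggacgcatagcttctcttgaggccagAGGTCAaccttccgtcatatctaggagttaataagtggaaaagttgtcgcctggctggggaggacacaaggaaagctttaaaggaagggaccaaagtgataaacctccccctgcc
Apoa2: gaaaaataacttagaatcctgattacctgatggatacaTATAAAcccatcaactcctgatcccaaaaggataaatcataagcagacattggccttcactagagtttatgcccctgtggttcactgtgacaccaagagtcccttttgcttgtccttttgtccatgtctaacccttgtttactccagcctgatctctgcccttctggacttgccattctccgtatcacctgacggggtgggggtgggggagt
In *Apoa4* the capitals are a match to CAAAGTNCA, an HNF4A-type element, which lay 182 to 174 bases before the RefSeq transcription start and which 1.193% of 32851 RefSeq windows of 250 bases hold on either strand. The *Apoc2* capitals are the nuclear receptor half-site AGGTCA, 115 to 110 bases before the start, found in 14.02% of windows. In *Apoa2* the match is TATAAA, 212 to 207 bases before the start, found in 12.37% of windows, and TATAAA also matched 56 to 51 bases before the start of *Apoa5* and 60 to 55 bases before that of *Apob*. For *Apoa4* and *Apob* the RefSeq start lies downstream of the annotated gene start given below, so that their matches are closer to the latter. The half-site variant GGGTCA was in 11.65% of windows and matched upstream of *Apoa5* and *Apoe*, and within annotated exon sequence in the *Apom* window. No match of these 4 motifs overlapped another, and a match describes the letters only. Windows were found for 8 of the 10 genes, without *Apoc1* and *Apoc3*, and the *Apom* window is not printed because trimming the exons left 1 base of it.

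The label of each library was checked on the deleted gene. *Yap1* was at 23.0 to 34.9 TPM in the 6 WT livers and at 0.994 to 3.11 TPM in the 6 KO livers. TPM is a transcript level normalised for transcript length and library total. The values add up to the same total in each library, so that a large change in abundant transcripts moves all others. The major urinary proteins took 8.84% ± 5.24 (SD, n = 6) of TPM in WT livers and 0.369% ± 0.258 (SD, n = 6) in KO livers, and the median tested gene was 0.35 higher in KO livers on the log2 scale. With the major urinary protein genes left out of the sum, the test described below still called 38.3% of genes higher, against 50.1% as deposited. The cause of the shift of the median gene was not tested. Comparisons are therefore given as deposited and, for the genes and counts that the results turn on, also after rescaling each library by the median ratio to the mean profile, which brought the median gene to -0.04. An estimate from the smallest steps between TPM values put the depth at 24806600 to 35204700 reads per library. The lowest value of any apolipoprotein then rests on about 1270 reads, so that counting is not what limits these values. With a single library per animal, spread between animals cannot be told apart from spread between libraries. Hepatocyte markers such as *Alb* summed to 80707 to 110950 TPM in WT and 87579 to 109255 TPM in KO livers over 9 genes, and after rescaling to 95292 to 121006 in WT and 72720 to 98088 in KO livers (4 higher and 1 lower by the test described below, 1 higher and 2 lower after rescaling). Macrophage markers summed to 81.9 to 251 TPM in WT livers and 354 to 733 TPM in KO livers, with 9 of 10 higher and 0 lower (7 higher and 1 lower after rescaling). Cholangiocyte markers summed to 27.7 to 58.5 TPM in WT and 252 to 713 TPM in KO livers, mostly *Spp1*, while *Krt7* and *Cftr* were at 0.63 TPM or lower in every liver. Of the 4 tested, 2 were higher and 1 lower on each scale. The authors' deposited table lists *Spp1* and *Sox9* as higher (log2 3.58 and 0.95) and *Krt19* and *Epcam* as lower (log2 -1.50 and -1.38), each with a false discovery rate of 0.02 or lower. Stellate cell markers went from 54.3 to 155 TPM in WT to 114 to 285 TPM in KO livers (4 of 6 higher and 0 lower, 2 higher and 1 lower after rescaling). Neutrophil markers went from 0.294 to 21.2 TPM to 12.4 to 46.1 TPM (3 of 4 tested higher and 0 lower, 1 higher after rescaling), with *Ly6g* at 0 in every WT liver. Endothelial markers were at 42.4 to 66.7 TPM in WT and 27.3 to 107 TPM in KO livers (1 of 6 higher and 1 lower, 0 higher and 2 lower after rescaling). Over all tested genes 50.1% were higher and 4.82% lower, and 20.9% and 18.7% after rescaling. The part of these cell types in the results below was not tested. Nothing in the labels says more on the separation of the animals, so that p-values measure the spread between these samples.

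The 10 transcripts together made up 5.63% ± 1.03 (SD, n = 6) of TPM in WT livers and 5.05% ± 0.923 (SD, n = 6) in KO livers. TPM is a level per transcript length, so genes can be ranked within a library. In WT livers the order of mean levels was *Apoa2*, *Apoe*, *Apoa1*, *Apoc1*, *Apoc3*, *Apoa5*, *Apob*, *Apom*, *Apoc2* and *Apoa4*. *Apoa2* and *Apoe* could not be ordered there, since *Apoa2* was the higher in 3 of 6 livers, while the order of *Apoa5* and *Apob* split by sex, with *Apoa5* the higher in the 3 females and *Apob* in the 3 males. In KO livers *Apoe* led in 6 of 6, *Apoa2* and *Apoa1* were not separable (3 of 6), and *Apoa4* and *Apoc2* stood above *Apom*, with *Apoa4* above *Apom* in 6 of 6 livers. *Apoa2* made up 31.8% of the summed mean level of the 10 transcripts in WT and 19.6% in KO livers. The share of *Apoe* went from 31.2% to 39.98%, that of *Apoa4* from 0.205% to 1.09% and that of *Apoc2* from 0.444% to 1.38%.

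**Figure D1:**
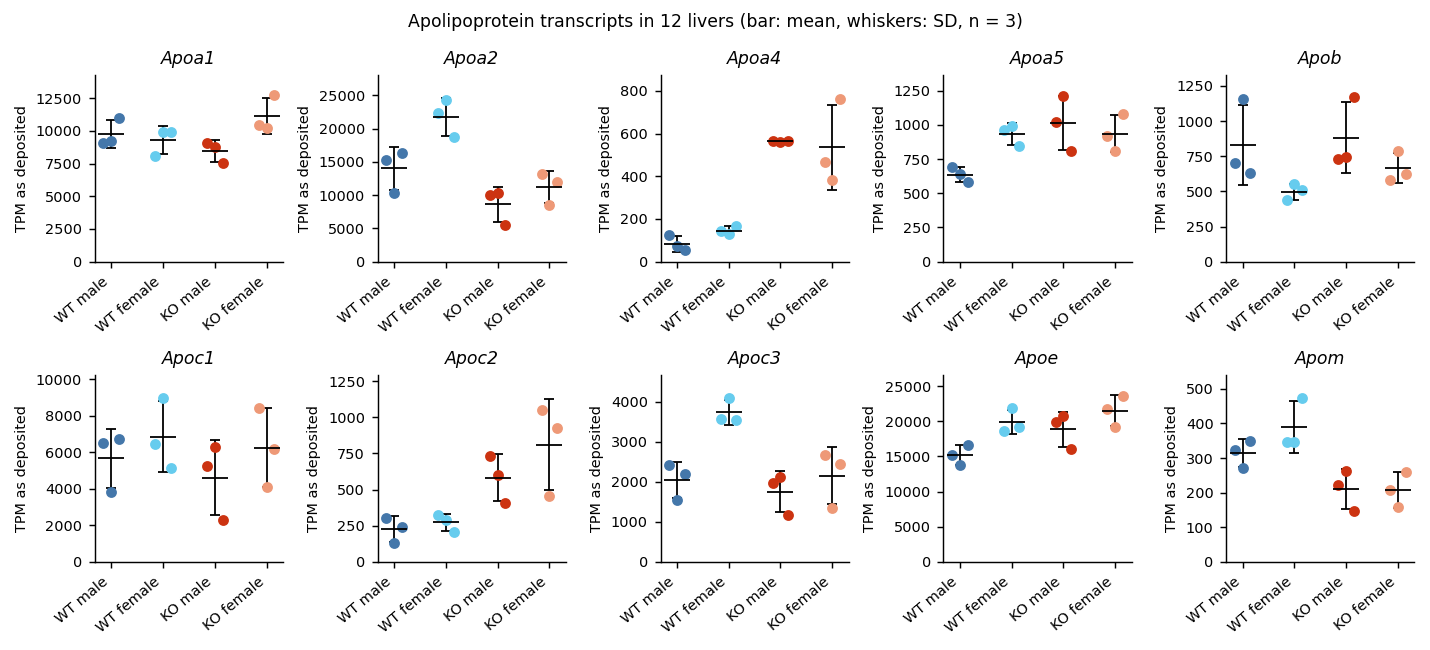
Level of each of the 10 apolipoprotein transcripts (y axis, TPM as deposited, from 0) in each liver, by group (x axis), with points for the 3 livers of a group and a bar and whiskers for the mean and SD. The 6 KO livers lie above the 6 WT livers for Apoa4 (382 to 761 against 53.6 to 168 TPM) and Apoc2, and below them for Apom.

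Between genotypes, *Apoa4* and *Apoc2* were higher and *Apoa2*, *Apom* and *Apoc3* lower in KO livers, on both scales, while *Apoa1*, *Apoa5*, *Apob*, *Apoc1* and *Apoe* did not pass the test on either. The test was limma's moderated test on log2(TPM + 1), with sex in the model and a Benjamini-Hochberg adjusted p threshold of 0.05 over 12278 genes. On the deposited scale it called 54.9% of all tested genes, 50.1% higher and 4.82% lower, so 2 of 10 higher and 3 of 10 lower stand against that background. After rescaling it called 39.6%, 20.9% higher and 18.7% lower. Calls in the same direction on both scales were made for 20.9% of genes higher and 4.81% lower. The median over the 10 genes was 0.12 on the deposited scale, against 0.35 for all genes, and -0.35 after rescaling, against -0.04. In bulk liver RNA, fewer cells of a type and less RNA per cell cannot be told apart.

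Among the proteins of high density lipoprotein, the transcripts of apolipoprotein A-II and apolipoprotein M fell. *Apoa2* encodes a structural protein of these particles that is bound mainly to apolipoprotein A-I. Its level in WT males was 15265, 10377 and 16378 TPM and in WT females 22318, 24294 and 18685 TPM. KO males had 9994, 10307 and 5567 TPM and KO females 13181, 8507 and 11902 TPM. Within each sex all KO livers were below all WT livers, although KO females overlapped WT males. KO livers were at 0.55 times the WT level (log2 -0.85 ± 0.19 SE, limma adjusted p = 0.00238), and at 0.40 times after rescaling (log2 -1.32 ± 0.21 SE, limma adjusted p = 0.000267), where the 6 KO and 6 WT values no longer overlapped.

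*Apom* encodes the lipocalin that carries sphingosine-1-phosphate on high density lipoprotein. WT males had 322, 272 and 349 TPM and WT females 346, 346 and 475 TPM. KO males had 224, 262 and 148 TPM and KO females 208, 157 and 261 TPM. The KO and WT values did not overlap on either scale. *Apom* was at 0.59 times the WT level (log2 -0.76 ± 0.17 SE, limma adjusted p = 0.00185) and at 0.43 times after rescaling (log2 -1.22 ± 0.18 SE, limma adjusted p = 0.000142). Non-overlap of this kind was seen for 30.6% of tested genes on the deposited scale and for 19% after rescaling. Among the apolipoproteins it was seen for *Apoa4*, *Apoc2* and *Apom* before rescaling and for *Apoa2*, *Apoa4*, *Apoc3* and *Apom* after it.

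*Apoa1* encodes the main structural protein of high density lipoprotein and the activator of LCAT. Its level was 9078, 9262 and 11002 TPM in WT males, 8077, 9933 and 9942 TPM in WT females, 9078, 8803 and 7518 TPM in KO males and 10441, 10205 and 12748 TPM in KO females. KO males lay at or below WT males and KO females above WT females. Over both sexes the log2 difference was 0.02 (95% interval -0.27 to 0.32, limma adjusted p = 0.891) as deposited and -0.44 (95% interval -0.82 to -0.059, limma adjusted p = 0.0635) after rescaling. The intervals are not adjusted for the number of genes. *Apoa1* thus missed the threshold on both scales, with an estimate whose sign depended on the scale.

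*Apoa4* showed the largest genotype difference of the 10 genes. It encodes a lipid-binding protein of chylomicrons and high density lipoprotein that in mice is made by both intestine and liver. WT males had 125, 74.6 and 53.6 TPM and WT females 142, 127 and 168 TPM, while KO males had 566, 560 and 566 TPM and KO females 467, 382 and 761 TPM. The lowest KO liver was above the highest WT liver on both scales. The KO level was 4.98 times the WT level (log2 2.32 ± 0.24 SE, limma adjusted p = 4.14e-06), a larger log2 fold change than that of 98.4% of tested genes, and 3.61 times after rescaling (log2 1.85 ± 0.23 SE, limma adjusted p = 4.08e-05). The intestinal marker genes *Sis*, *Lct* and *Alpi* were at 0.17 TPM or lower in every liver and *Cdx2* was listed at 0 in all 12, whereas *Vil1* was at 0 to 0.334 TPM in WT and 0.329 to 1.12 TPM in KO livers. *Fabp2*, the intestinal marker that liver also expresses, was at 45.5 to 91.6 TPM in WT and 20.8 to 32.1 TPM in KO livers. An antisense gene model, *Gm47528*, overlaps 34.93% of the *Apoa4* exon bases and was listed at 0 in all libraries.

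Of the regulators of triglyceride clearance, the lipase activator rose and the lipase inhibitor fell. *Apoc2* was at 307, 128 and 242 TPM in WT males and 322, 292 and 208 TPM in WT females. KO males had 732, 603 and 409 TPM and KO females 1051, 455 and 927 TPM. On the deposited scale all KO livers were above all WT livers, and after rescaling KO male 3, at 304 TPM, fell within the WT range of 176 to 375 TPM. The KO level was 2.74 times the WT level (log2 1.46 ± 0.25 SE, limma adjusted p = 0.000298) and 1.99 times after rescaling (log2 0.99 ± 0.25 SE, limma adjusted p = 0.00688). *Gm44805*, a read-through gene model on the same strand that shares 79.46% of the *Apoc2* exon bases, was at 65.5 ± 8.54 TPM in WT and 53.5 ± 17.7 TPM in KO livers (SD, n = 6 each), and reads in the shared bases may have been split between the gene models.

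*Apoc3* was at 2407, 1536 and 2181 TPM in WT males and at 3571, 4095 and 3534 TPM in WT females. KO males had 1975, 2122 and 1168 TPM and KO females 2662, 1336 and 2437 TPM. Females of the 2 genotypes did not overlap and males did. The KO level was 0.68 times the WT level (log2 -0.55 ± 0.22 SE, limma adjusted p = 0.0441) and 0.49 times after rescaling (log2 -1.01 ± 0.21 SE, limma adjusted p = 0.00214). The deposited-scale call held in 16 of 27 alternatives and was lost when any of WT male 1, WT male 3, the 3 WT females, KO male 3, KO female 2 or KO female 3 was left out (limma adjusted p 0.0601 to 0.107) when no filter on low values was applied (limma adjusted p = 0.0789), with a term for the early animal series (limma adjusted p = 0.0512) and in the late series alone (limma adjusted p = 0.0763). The early series is a name used here for WT female 3 and KO female 1, whose sample titles carry lower numbers than the rest. No label or header states a series or batch.

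*Apoa5*, whose product helps triglyceride-rich particles reach lipoprotein lipase, was at 692, 639 and 580 TPM in WT males, 965, 993 and 844 TPM in WT females, 1022, 1208 and 811 TPM in KO males and 918, 813 and 1081 TPM in KO females. KO males were above WT males, and KO females spanned the WT female values. The log2 difference over both sexes was 0.33 (95% interval 0.0077 to 0.65, limma adjusted p = 0.0762) and -0.14 after rescaling (95% interval -0.47 to 0.20, limma adjusted p = 0.504). *Apob*, the scaffold of very low density lipoprotein, was at 702, 1157 and 630 TPM in WT males, 437, 551 and 508 TPM in WT females, 730, 744 and 1174 TPM in KO males and 583, 785 and 627 TPM in KO females. Its genotypes overlapped and its log2 difference was 0.26 (95% interval -0.11 to 0.63, limma adjusted p = 0.221), or -0.21 after rescaling (95% interval -0.63 to 0.22, limma adjusted p = 0.428). Leaving out WT male 2, the highest WT value, moved *Apob* past the threshold on the deposited scale (log2 0.39, limma adjusted p = 0.0337), and leaving out KO female 2 did so for *Apoa5* (log2 0.41, limma adjusted p = 0.03).

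*Apoe*, the ligand of remnant uptake, was among the most abundant transcripts of the liver, ranking 8 in WT and 5 in KO livers by mean TPM. It was at 15234, 13820 and 16593 TPM in WT males, 18620, 21908 and 19197 TPM in WT females, 19874, 20679 and 16063 TPM in KO males and 21777, 19146 and 23516 TPM in KO females. Genotypes overlapped, with a log2 difference of 0.21 (95% interval -0.073 to 0.49, limma adjusted p = 0.191) and of -0.26 after rescaling (95% interval -0.59 to 0.073, limma adjusted p = 0.199). *Apoc1*, which restrains remnant uptake and activates LCAT, ranged from 3819 to 8965 TPM over the 6 WT livers (median 6460) and from 2307 to 8435 TPM over the 6 KO livers (median 5726). Its coefficient of variation within groups was 28.3% to 44.6%, and the log2 difference was -0.27 (95% interval -0.84 to 0.31, limma adjusted p = 0.413), or -0.73 after rescaling (95% interval -1.34 to -0.12, limma adjusted p = 0.0561). The deposited value was -0.059 without KO male 3, the lowest *Apoc1* value, and between -0.39 and -0.16 without any other single library. In the late series with rescaling *Apoc1* passed at -0.92 (limma adjusted p = 0.0404).

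**Figure D2:**
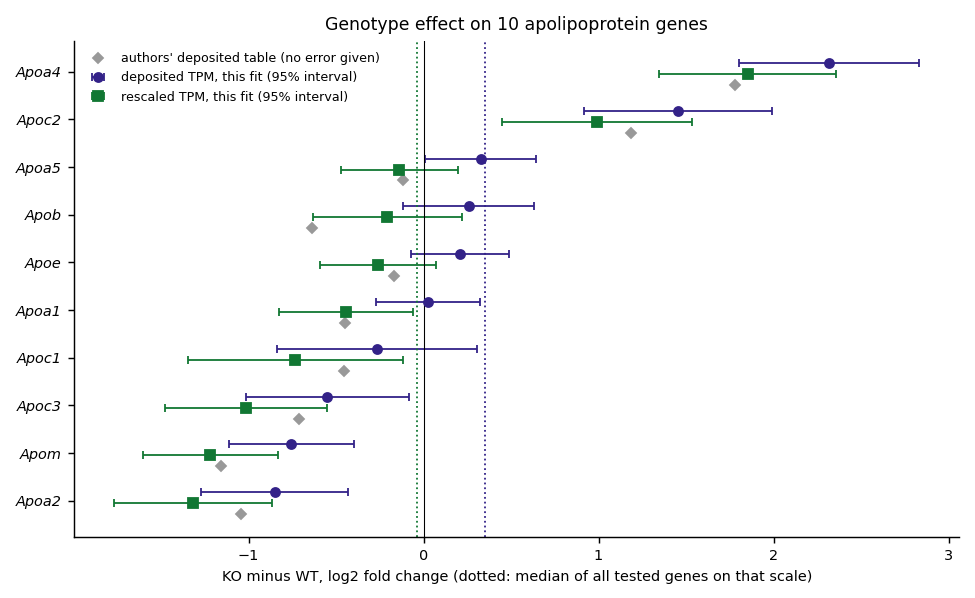
Genotype difference of each gene (x axis, KO minus WT, log2 fold change) on the deposited and the rescaled TPM, with 95% intervals from limma over 12 livers, beside the value in the authors' deposited table, which gives no error. Intervals of Apoa4 and Apoc2 lie above 0 and those of Apoa2, Apom and Apoc3 below 0 on both scales, and the dotted lines mark the median of all tested genes.

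The authors' deposited table of genotype comparisons lists log2 fold changes of 1.78 for *Apoa4*, 1.19 for *Apoc2*, -1.15 for *Apom* and -1.04 for *Apoa2*, each with a false discovery rate printed as 0.0. For *Apoc3* the authors' deposited table gives -0.71 with a false discovery rate of 0.07. The other 5 genes have log2 values between -0.64 and -0.12 in the authors' deposited table, with false discovery rates of 0.12 to 0.81. Against the present estimates, *Apoa2*, *Apoc1* and *Apoc3* in the authors' deposited table lay nearer to the deposited scale and the other 7 genes nearer to the rescaled one.

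Split by sex, *Apoa4* and *Apoc2* were higher and *Apoa2* and *Apom* lower in both sexes, while *Apoc3* passed in females and not in males. In males, 5 of 10 genes passed the test as deposited, against 46.1% of all genes, and 4 passed after rescaling, against 24.1%. *Apoa4* rose 7.02-fold (log2 2.81, and 2.24 after rescaling) in males and 3.53-fold (log2 1.82, and 1.47 after rescaling) in females. *Apoc2* rose by a log2 of 1.41 in males and 1.498 in females as deposited, but the male value of 0.84 after rescaling did not pass (limma adjusted p = 0.113), and it was 0.53 without WT male 2 (limma adjusted p = 0.335). *Apoa2* and *Apom* fell in males on the deposited scale by 0.73 and 0.60 on the log2 scale, close to the threshold (limma adjusted p = 0.0447 and 0.0496). The male call of *Apoa2* was lost in 10 of 27 alternatives (limma adjusted p 0.0514 to 0.194) and that of *Apom* in 14 of 27 (limma adjusted p 0.0514 to 0.209), each furthest without KO male 3. Without KO male 3 the values were -0.44 and -0.37. *Apoc3* in males was at -0.24 as deposited (limma adjusted p = 0.501), at -0.82 after rescaling (limma adjusted p = 0.0671) and at 0.030 as deposited without KO male 3.

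*Apoa5* and *Apoa1* passed in males and not in females, each on a single scale. *Apoa5* rose in males as deposited (log2 0.65, limma adjusted p = 0.00779) and was at 0.08 after rescaling (limma adjusted p = 0.827). Without the Mup genes in the sum it was at 0.46 and missed the threshold (limma adjusted p = 0.0534). *Apoa1* fell in males after rescaling (log2 -0.79, limma adjusted p = 0.0196) and was at -0.21 as deposited (limma adjusted p = 0.325). In females, 5 of 10 passed on each scale, against 33.8% of all genes as deposited and 26.1% after rescaling. These were *Apoa4*, *Apoc2*, *Apoa2*, *Apoc3* and *Apom*, of which *Apoc3* fell by 0.86 as deposited (limma adjusted p = 0.0343) and by 1.21 after rescaling (limma adjusted p = 0.0104). The deposited call of *Apoc3* in females was lost without KO female 2 (log2 -0.55, limma adjusted p = 0.136), without any of the 3 WT females (limma adjusted p 0.0646 to 0.103) and with no filter (limma adjusted p = 0.0685). In females *Apoa2* was lost with no filter, without WT female 2 and without KO female 2 (limma adjusted p 0.0589 to 0.0686), and *Apom* in the late series alone (limma adjusted p = 0.0812). *Apoc2* in females was lost in the late series both as deposited (log2 1.08, limma adjusted p = 0.0957) and after rescaling (log2 0.79, limma adjusted p = 0.242).

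The difference between the sexes in their genotype effect was tested directly as an interaction. By limma 0 of 10 genes passed on either scale, against 0.912% of all genes as deposited and 0.839% after rescaling, and 2 had an unadjusted p under 0.05 as deposited and 1 after rescaling, against 8.85% and 7.58% of all genes. These were *Apoa4* (male minus female effect 0.99 on the log2 scale, limma adjusted p = 0.489) and *Apoa5* (0.66, limma adjusted p = 0.424) as deposited, and *Apoa1* (-0.69, limma adjusted p = 0.64) after rescaling. The genes called in a single sex are thus not shown to differ between the sexes.

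Male and female livers of the same genotype were also compared. In WT livers limma called 0 of 10 genes on either scale, against 5.74% of all genes as deposited and 4.38% after rescaling, and an unadjusted p under 0.05 was reached by 6 genes as deposited and 2 after rescaling, against 25.6% and 23.9% of all genes. WT females lay above WT males without overlap for *Apoa2*, *Apoa4*, *Apoa5*, *Apoc3* and *Apoe* on the deposited scale, and WT males lay above WT females without overlap for *Apob*. These are 6 of 10 genes, against 33.5% of all genes on that scale. After rescaling 6 of 10 did not overlap, against 28.5% of all genes, with *Apoa1* (males above females) in place of *Apoa4*. On the deposited scale the largest of these sex differences was that of *Apoc3*, a log2 of -0.89 for males minus females (limma adjusted p = 0.086). After rescaling it was that of *Apob*, at 0.92 (limma adjusted p = 0.0713), with *Apoc3* at -0.66 (limma adjusted p = 0.202). The WT sexes also differed without overlap in the balance of long and short transcripts described below, which cannot be told apart from sex here. Among KO livers 0 of 10 were called on either scale, against 0.0814% of all genes on each, with 1 gene at an unadjusted p under 0.05 as deposited and 0 after rescaling, against 5.33% and 5.57% of all genes. That gene was *Apoa1* (log2 -0.39, limma adjusted p = 0.859), for which KO females lay above KO males without overlap, as 9.5% of all genes did in either direction. After rescaling 0 of 10 did not overlap, against 11.5% of all genes.

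*Apoa1*, *Apoc3*, *Apoa4* and *Apoa5* form a cluster on chromosome 9, and *Apoe*, *Apoc1* and *Apoc2* belong to another on chromosome 7. On the plus strand of GRCm38 chromosome 9 lie *Apoa1* at 46228580 to 46230466, *Apoa4* at 46240696 to 46243459 and *Apoa5* at 46268633 to 46271919, with *Apoc3* on the minus strand between them at 46232933 to 46235636. The chromosome 7 genes are all on the minus strand, with *Apoe* at 19696109 to 19699188, *Apoc1* at 19689481 to 19692660, *Apoc4* at 19678083 to 19681479 and *Apoc2* at 19671579 to 19677941. The annotated starts of *Apoc3* and *Apoa4*, neighbours in the first cluster, lie 7.06 and 12.1 kb from that of *Apoa1*. Outside the clusters, *Apoa2* lies on chromosome 1 at 171225054 to 171226379, *Apob* on chromosome 12 at 7977648 to 8016835 and *Apom* on chromosome 17 at 35128997 to 35132050.

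In the chromosome 9 cluster *Apoa4* was called higher and its neighbour *Apoc3* lower, and in the chromosome 7 cluster *Apoc2* was the only gene called as deposited. The ratio of a gene to its neighbour within a library does not depend on the scale, and 6 neighbouring pairs were compared by an exact two-sided permutation test within sex, a choice made after the values were seen. Its smallest possible p was 0.005, which any pair without overlap within sex gives, and the pairs with *Apoa4* and *Apoc2* restate the rise of those genes. The *Apoc3* to *Apoa4* ratio was 19.2 to 40.7 in WT livers and 2.06 to 5.70 in KO livers, a log2 change of -2.88 (exact permutation p = 0.005, Benjamini-Hochberg adjusted over 6 pairs 0.01). The *Apoa4* to *Apoa5* ratio was 0.0924 to 0.199 in WT and 0.464 to 0.704 in KO livers, a log2 change of 2.001 with the same exact p of 0.005 (adjusted 0.01). These 2 ratios share *Apoa4*, and neither had overlapping genotypes.

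On chromosome 7, *Apoc4*, a minor constituent of very low density lipoprotein, lies between *Apoc2* and *Apoc1*. The *Apoc2* to *Apoc4* ratio was 0.111 to 0.209 in WT and 0.406 to 0.593 in KO livers, a log2 change of 1.81 (exact permutation p = 0.005, adjusted 0.01). *Apoc4* to *Apoc1* changed by -0.09 (exact permutation p = 0.52, adjusted 0.52), *Apoc1* to *Apoe* by -0.47 (exact permutation p = 0.085, adjusted 0.102) and *Apoa1* to *Apoc3* by 0.57 (exact permutation p = 0.055, adjusted 0.0825), and these 3 pairs overlapped between genotypes. The *Apoa1* to *Apoc3* value averages a difference of 0.03 in males and 1.11 in females, where the log2 ratios did not overlap (1.18 to 1.49 in WT and 1.97 to 2.93 in KO females). Whether the sexes differ in this ratio was not tested.

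**Figure D3:**
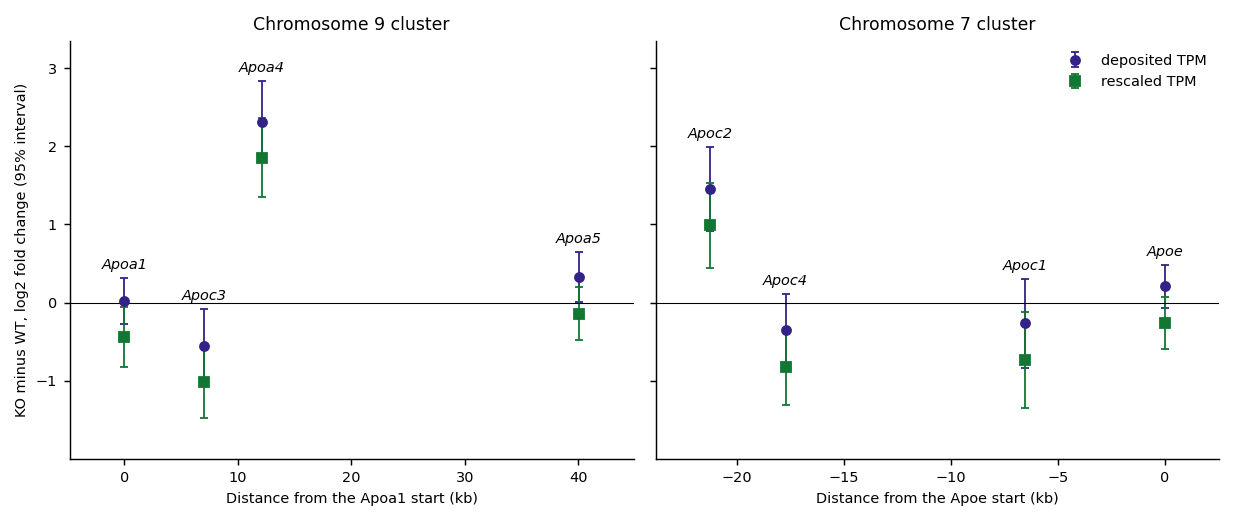
Genotype difference (y axis, KO minus WT, log2 fold change with 95% interval) of the genes of the chromosome 9 cluster (left) and the chromosome 7 cluster (right) by the distance of each start from that of Apoa1 or Apoe (x axis, kb). Apoa4, 12.1 kb from the Apoa1 start, and Apoc2 at the far end of the second cluster stand above their neighbours on both scales.

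KO male 3, WT male 2 and KO female 2 stood apart in the balance of long and short transcripts, which touches the short apolipoprotein transcripts and the long *Apob* transcript. An index was formed in each library as the median log2 deviation of 3776 genes with more than 6000 exon bases minus that of 287 genes with fewer than 1000, the apolipoproteins left out. KO male 3 had an index of 0.95, WT male 2 of 0.43 and KO female 2 of 0.33, while the other 9 libraries lay between -0.38 and -0.01. The same 3 libraries had the highest log2 ratios of *Apob*, with 13934 exon bases, to *Apoc1*, with 744, at -0.97, -1.72 and -2.39, against -4.02 to -2.85 in the rest. They also held the lowest *Apoa2*, *Apoc1* and *Apoc3* values of their groups.

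With the index as a term in the model, an alternative chosen after the data were seen, the 5 calls held on both scales. The deposited-scale log2 differences were then 2.35 for *Apoa4*, 1.69 for *Apoc2*, -0.67 for *Apoa2*, -0.64 for *Apom* and -0.36 for *Apoc3* (limma adjusted p = 0.0395 for the last). *Apoa5* (log2 0.40, limma adjusted p = 0.0242) and *Apoe* (log2 0.27, limma adjusted p = 0.0418) passed as higher in that fit as deposited, and *Apoc1* passed as lower after rescaling (log2 -0.45, limma adjusted p = 0.0211). In those fits 52.9% of all genes were called higher as deposited and 20.9% lower after rescaling. *Apob* did not pass on either scale, and its value went from 0.26 to 0.10 as deposited (limma adjusted p = 0.423) and from -0.21 to -0.36 after rescaling (limma adjusted p = 0.0802). *Apoc3* in males passed in that fit after rescaling (log2 -0.62, limma adjusted p = 0.00721), as 30.2% of all genes did in males. The index of WT livers was -0.10 ± 0.29 and that of KO livers 0.10 ± 0.48 (SD, n = 6 each). Within WT livers it ran from -0.097 to 0.43 in males and from -0.38 to -0.11 in females, without overlap. The sex differences of WT livers given above are thus not separated from this balance.

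**Figure D4:**
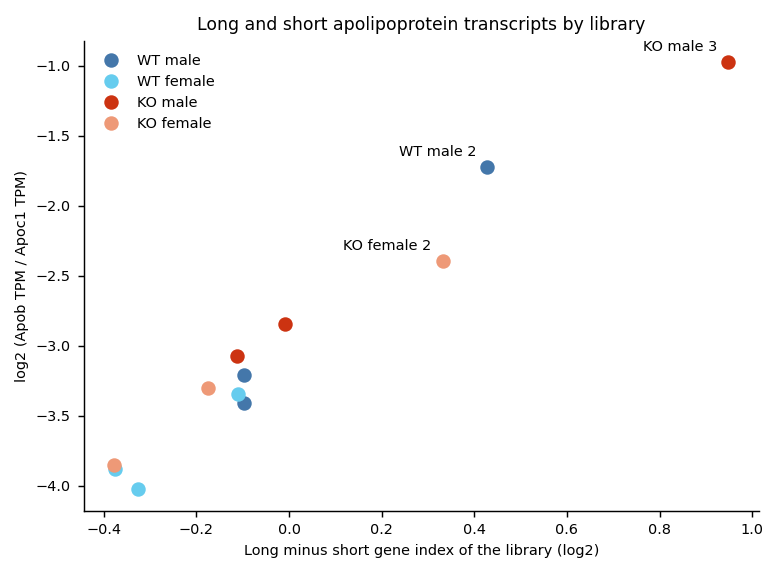
Log2 ratio of Apob to Apoc1 TPM (y axis) against the long minus short transcript index (x axis, log2), with 1 point per library coloured by group. KO male 3, WT male 2 and KO female 2 lie at the upper right, at indices of 0.95, 0.43 and 0.33.

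Other genes of lipoprotein metabolism were read from 5 lists, against a background of 50.1% of all tested genes higher and 4.82% lower as deposited, and 20.9% higher and 18.7% lower after rescaling. Of 12 tested further apolipoproteins, 3 were higher and 2 lower in KO livers as deposited (all genes 50.1% and 4.82%), and 1 higher and 8 lower after rescaling (20.9% and 18.7%). *Clu* (apolipoprotein J) rose on both scales, from 1037 ± 118 to 6362 ± 708 TPM (SD, n = 6 each, log2 2.62, and 2.15 after rescaling, limma adjusted p = 5.58e-10 as deposited). *Saa4*, a constitutive serum amyloid A of high density lipoprotein, fell on both (log2 -1.04 as deposited and -1.50 after rescaling). The acute-phase forms *Saa1* and *Saa2* passed as higher only before rescaling (log2 2.08 and 2.52 as deposited, limma adjusted p = 0.0829 and 0.0579 after rescaling), and WT male 2 stood apart from the other WT livers with 2030 TPM of *Saa1* and 1495 TPM of *Saa2*.

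Of 14 genes of particle assembly and secretion, 7 were higher and 1 lower as deposited, and 1 higher and 5 lower after rescaling. The 7 are a share near the 50.1% of all genes called higher as deposited, while 4.82% were called lower, and after rescaling 20.9% were higher and 18.7% lower. The pair called the same way on both scales was *Apobec1*, which edits the *Apob* transcript so that the short form of the protein is made (log2 1.63, and 1.19 after rescaling, limma adjusted p = 0.000379 as deposited), and *Dgat2*, which makes triglyceride (log2 -0.84, and -1.31 after rescaling, limma adjusted p = 0.000215 as deposited). *Mttp*, which loads lipid onto apolipoprotein B, was at a log2 of 0.17 as deposited (limma adjusted p = 0.266) and -0.29 after rescaling (limma adjusted p = 0.0999). *Tm6sf2* and *Pla2g12b*, both needed to lipidate the particle, passed only as deposited (log2 0.81 and 0.62, and 0.35 and 0.17 after rescaling).

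Of 10 tested lipoprotein receptors and their regulators, 6 were higher and 0 lower as deposited, where 50.1% of all genes were higher and 4.82% lower, and 4 were higher and 1 lower after rescaling, against 20.9% and 18.7%. The 4 were *Cd36*, a fatty acid and oxidized lipoprotein receptor, which went from 15.5 ± 8.5 to 101 ± 12.7 TPM (SD, n = 6 each, log2 2.79, and 2.35 after rescaling, limma adjusted p = 1.47e-06 as deposited), *Sdc1*, a heparan sulfate proteoglycan that binds remnants (log2 1.46 and 0.99), *Lsr*, the lipolysis-stimulated receptor (log2 1.38 and 0.91), and *Scarb1*, the high density lipoprotein receptor (log2 0.89 and 0.43).

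Lipoprotein lipase, the enzyme that the product of *Apoc2* activates, was the gene of the lipase and modifier list with the largest change. *Lpl* was at 9.94, 15.5 and 7.26 TPM in WT males and 5.82, 2.69 and 4.94 TPM in WT females, against 182, 91.3 and 193 TPM in KO males and 192, 251 and 147 TPM in KO females. No KO liver overlapped a WT liver, and the log2 difference was 4.45 (limma adjusted p = 1.16e-07) as deposited and 4.00 after rescaling. Of the 15 tested genes of this list 7 were higher and 3 lower as deposited (all genes 50.1% and 4.82%), and 3 higher and 6 lower after rescaling (20.9% and 18.7%), so that the shares called higher were near those of all genes. *Pla2g7* (log2 2.497, and 2.15 after rescaling) and the cholesterol exporter *Abcg1* (log2 1.27, and 0.93 after rescaling) rose on both scales, and *Angptl4*, a lipase inhibitor, fell on both (log2 -1.18, and -1.63 after rescaling). *Lpl*, *Pla2g7*, *Abcg1*, *Cd36* and *Apoe* are also expressed by macrophages, whose summed markers are given above, and the part of those cells in these values was not tested.

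Of 18 transcription factors that regulate apolipoprotein genes, 3 were higher and 2 lower as deposited (all genes 50.1% and 4.82%), and 1 higher and 9 lower after rescaling (20.9% and 18.7%). *Ppara*, the fatty acid sensor, fell on both scales, from 39.1 ± 12.3 to 15.3 ± 3.7 TPM (SD, n = 6 each, log2 -1.27, and -1.71 after rescaling, limma adjusted p = 0.000257 as deposited). *Mlxipl* (ChREBP) fell on both (log2 -0.63 as deposited, limma adjusted p = 0.0267, and -1.09 after rescaling), and *Srebf2*, the regulator of cholesterol synthesis, rose on both (log2 0.93 and 0.48). *Nr1h2* passed only as deposited (log2 0.45, and 0.00 after rescaling). *Hnf4a* was at a log2 of 0.33 as deposited, past the threshold (limma adjusted p = 0.0154), and at -0.13 after rescaling (limma adjusted p = 0.436).

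**Figure D5:**
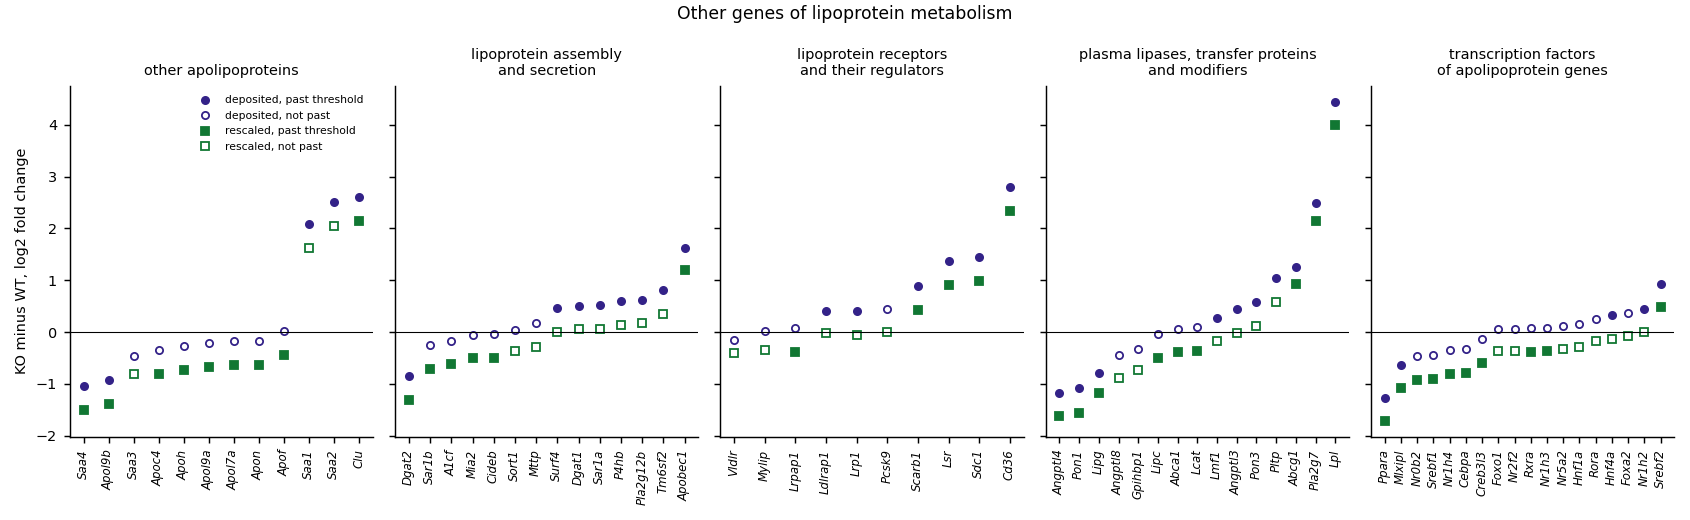
Genotype difference (y axis, KO minus WT, log2 fold change) of the tested genes of the 5 lipoprotein lists (x axis, genes ordered within each panel) on the deposited and rescaled TPM, with filled symbols past the adjusted p threshold. Lpl at 4.45, Cd36 at 2.79 and Clu at 2.62 are the highest points on the deposited scale, and all genes shift down after rescaling.

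For each apolipoprotein, the genes with the most similar pattern were found by the root mean square difference of the 4 centred group means of log2(TPM + 1), over 5924 genes of mean TPM of at least 10. Nearest to *Apoa4* were *Slc5a6* (difference 0.044) and *Plpp2* (0.073), which had 3.61 and 12.7 TPM in WT males and 29.8 and 104 TPM in KO males. The nearest genes of *Apoc2* were *S100a9* (0.037) and *Rras* (0.058), those of *Apom* were *Abhd6* (0.031) and *Tsc22d3* (0.033), and those of *Apoa2* were *Isoc2b* (0.056) and *Afm* (0.064). *Apoe* had the closest match of the 10, *Mrps28* (0.012). With 4 group means, such likeness is a description and carries no test.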

How the data were processed

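Liver RNA was sequenced by a service provider from standard Illumina libraries, per the labels' protocols. The authors deposited TPM values for 12 libraries, per the file headers, and a table with their fold change score, log2 fold change and false discovery rate, for which the submitters' processing notes name edgeR and the build GRCm38. The aligner and counter are not given in the sources used here. From the TPM, log2(TPM + 1) was tested with limma 3.58.1 (R 4.3.3; lmFit, eBayes with trend) over 12278 genes of mean TPM of at least 0.5, with Benjamini-Hochberg adjustment over all of them. The genotype model had sex as a covariate, and other contrasts came from the 4 group means. Rescaled TPM were divided by median-of-ratios size factors (0.724 to 1.34). Fold changes are on the log2(TPM + 1) scale and understate those of low genes. In simulated data for the genotype comparison over 12278 genes, 91% of 100 genes changed by a log2 of 1 and 99% of 100 changed by 2 were recovered, with 11 false calls. Recovery and false calls in data where as large a share of genes differs as was called here, 54.9% as deposited, was not tested. Each list names up to 4 called genes of largest change, beside genes the background explains. A gene of the receptor list is not reported here and is left out of its counts. The apolipoproteins and the lists were chosen with earlier results of these data known. Depth was estimated from the TPM of a single read and GENCODE M21 exon lengths. Alternatives concerned scaling, pseudocount, filter, trend, animal series, length index and each library.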

Additional observations from a re-analysis of the deposited data

Results flagged for a closer look

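Among the 10 genes, each genotype's 6 livers were searched for a value far from the rest, which chance gives in about 1 of 20 groups, and 20 groups were searched. *Apob* met this in both genotypes. In WT male 2 it was at 1156.949 TPM, against 437 to 702 TPM in the other 5 WT livers, a gap of 0.631 of the range. In KO male 3 it was at 1173.585 TPM, against 583 to 785 TPM in the other 5 KO livers, a gap of 0.658 of the range. These 2 libraries also had the 2 highest long minus short transcript indices, 0.43 and 0.95. With the index in the model the genotype value of *Apob* went from 0.26 to 0.10 on the deposited log2 scale (limma adjusted p = 0.423).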

How the results depend on the processing

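Over 27 alternatives to the deposited-scale genotype fit, *Apoa2*, *Apoa4*, *Apoc2* and *Apom* passed in 27 and *Apoc3* in 16. Each count is given with the share of all tested genes called in the same comparison and setting. The count of genes called higher was 4 with the length index in the model (52.9%). The male count of 5 was 3 without the filter (32.3%), with a term for the early animal series (44.9%) and in the late series alone (44.1%), 8 with rescaling and the index together (30.2%), and 3 to 5 over the 12 omissions of a library (36.2% to 45.9%). The female count of 5 was 3 without the filter (25%) and in the late series alone (23%), and 3 to 5 over the omissions (25.2% to 37.1%). The count for sex in WT was 1 with the index (4.9%) and 0 to 1 over the omissions (2.35% to 13.8%). The cause of these moves was not tested, beyond the fewer samples or added genes that some of these settings bring.

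Apart from *Nr1h2* and, as given above, *Hnf4a*, the values below whose sign turned had not passed the test as deposited. For *Apoa1* the genotype value of 0.02 became -0.44 with rescaling, -0.11 without the Mup genes in the sum, -0.052 without the 20 most abundant genes, -0.000353 without mitochondrial genes, -0.40 with rescaling and no WT male 2 or with rescaling and the index, -0.45 with rescaling in the late series, and -0.047 to 0.089 over the omissions. In females *Apoa1* became -0.10 with rescaling, also without WT male 2, and -0.055 with rescaling and the index. *Apoa5* became -0.14 with rescaling, also without WT male 2, -0.093 in the late series rescaled and -0.059 rescaled with the index, and in females 0.073 with the index and -0.11 to 0.10 over the omissions. *Apob* became -0.21 with rescaling, -0.036 also without WT male 2, -0.19 in the late series rescaled and -0.36 rescaled with the index. *Apoe* became -0.26 with rescaling, also without WT male 2, -0.25 in the late series rescaled and -0.19 rescaled with the index. *Apoc1* became 0.0068 with the index, *Apoc3* in males ranged from -0.43 to 0.030 over the omissions, *Nr1h2* became -0.00794 with rescaling and no WT male 2, and the *Apoc4* to *Apoc1* ratio became 0.043 in the late series.

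The late series leaves out WT female 3 and KO female 1, set apart only by lower numbers in their sample titles. WT male 2 has a library number apart from those of the other libraries. The late series, the settings that pair rescaling with a change of samples, and the length index were chosen after seeing the data. No paired analysis was possible because the labels do not match any animal of one group to an animal of another. Values depend on 3 livers per group, and a difference that missed the threshold is not shown to be absent.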
